A study of Homo sapiens with 74 samples.

Results

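The HOX genes of the 4 human clusters were examined together with MEIS and PBX, the genes of the proteins that bind DNA beside HOX proteins. Members were taken by gene symbol: every numbered gene of HOXA, HOXB, HOXC, HOXD, MEIS and PBX. This gave 46 of the 28131 genes in each count table, of which 11 are HOXA, 10 HOXB, 9 HOXC, 9 HOXD, 3 MEIS and 4 PBX genes. The study asked what DOT1L and its partner proteins do in transcription. DOT1L is the histone methyltransferase that marks the body of active genes, and ENL, encoded by MLLT1, is a reader protein found with DOT1L and with elongation factors. RNA of 5 groups was sequenced in human cell lines. K562, a line from a chronic myeloid leukaemia in blast crisis, gave wild-type controls, cells labelled DOT1L-/- and cells labelled ENL-/-. HEL, an erythroleukaemia line grown in another medium, gave controls and cells with DOT1L knocked down. No other allele or agent is named for these groups, and the labels do not say whether a knockout line is 1 clone or how the knockdown was made.

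HOX genes encode homeodomain transcription factors whose order along each cluster follows their order of use along the body axis. In blood, HOX genes and MEIS1 are active in stem and progenitor cells and fall silent as cells mature, and their persistence with MEIS1 is a known feature of leukaemias with MLL fusions, in which DOT1L is recruited to them. MEIS and PBX belong to the TALE class of homeodomain proteins. PBX proteins bind DNA with HOX partners, and MEIS proteins bind PBX and keep it in the nucleus.

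The counts came from 12 libraries. K562 had 2 control, 3 DOT1L knockout and 3 ENL knockout libraries of 15404944 to 29236703 counted fragments, and HEL had 2 control and 2 knockdown libraries of 12151495 to 12811688 counted reads. A K562 column labelled control 3 held the same counts as control 2 in every gene and was counted with it as 1 library, whereas the other replicate pairs differed by more than sampling noise. Labels do not say that replicates came from separate cultures, so p-values measure the spread between these libraries. Labels of the control and DOT1L knockout K562 libraries name a sequencing lane and those of the ENL knockout name none, so a difference of sequencing and the ENL knockout cannot be told apart. The targeted transcripts were lower but present. DOT1L stood at 270 and 256 CPM (counts divided by the TMM-adjusted depth of the library) in K562 controls and at 186, 176 and 184 in the DOT1L knockout, a log2 difference of -0.53. In HEL, DOT1L was at 97.5 and 87.4 CPM in controls and 29.1 and 30.0 in the knockdown, a log2 difference of -1.64. MLLT1 was at 214 and 219 CPM in K562 controls and 153, 157 and 154 in the ENL knockout, a log2 difference of -0.48. DOT1L in the ENL knockout was at 243, 265 and 245 CPM, and MLLT1 in the DOT1L knockout at 227, 219 and 216. In HEL, MLLT1 was at 93.0 and 84.6 CPM in controls and 114 and 121 in the knockdown. Transcript levels do not measure protein.

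A gene was called silent in a group where each library held at most 3 counts, which is 0.103 to 0.247 CPM depending on the library. Such a count allows a low level and covers counting error only, since reads without molecular identifiers are not independent molecules. By this measure 23 of the 46 genes were silent in K562 controls, 16 in the DOT1L knockout, 25 in the ENL knockout, 14 in HEL controls and 14 in the HEL knockdown. Of all 28131 genes, 16975 and 16977 had a count in K562 controls, 17896 to 18243 in the DOT1L knockout and 15970 to 16481 in the ENL knockout. In HEL these were 15693 and 15686 in controls and 16055 and 15960 in the knockdown. Detection over all genes thus moved the same way within K562, so the counts of silent members are a description. Silent in all 5 groups were 7 genes, namely HOXA2, HOXA7, HOXB1, HOXD9, HOXD10, HOXD11 and HOXD12. HOXD9 alone had no count in any of the 12 libraries. HEL libraries are shallower than K562 libraries, so the same limit of 3 counts stands for a higher level there.

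**Figure D1:**
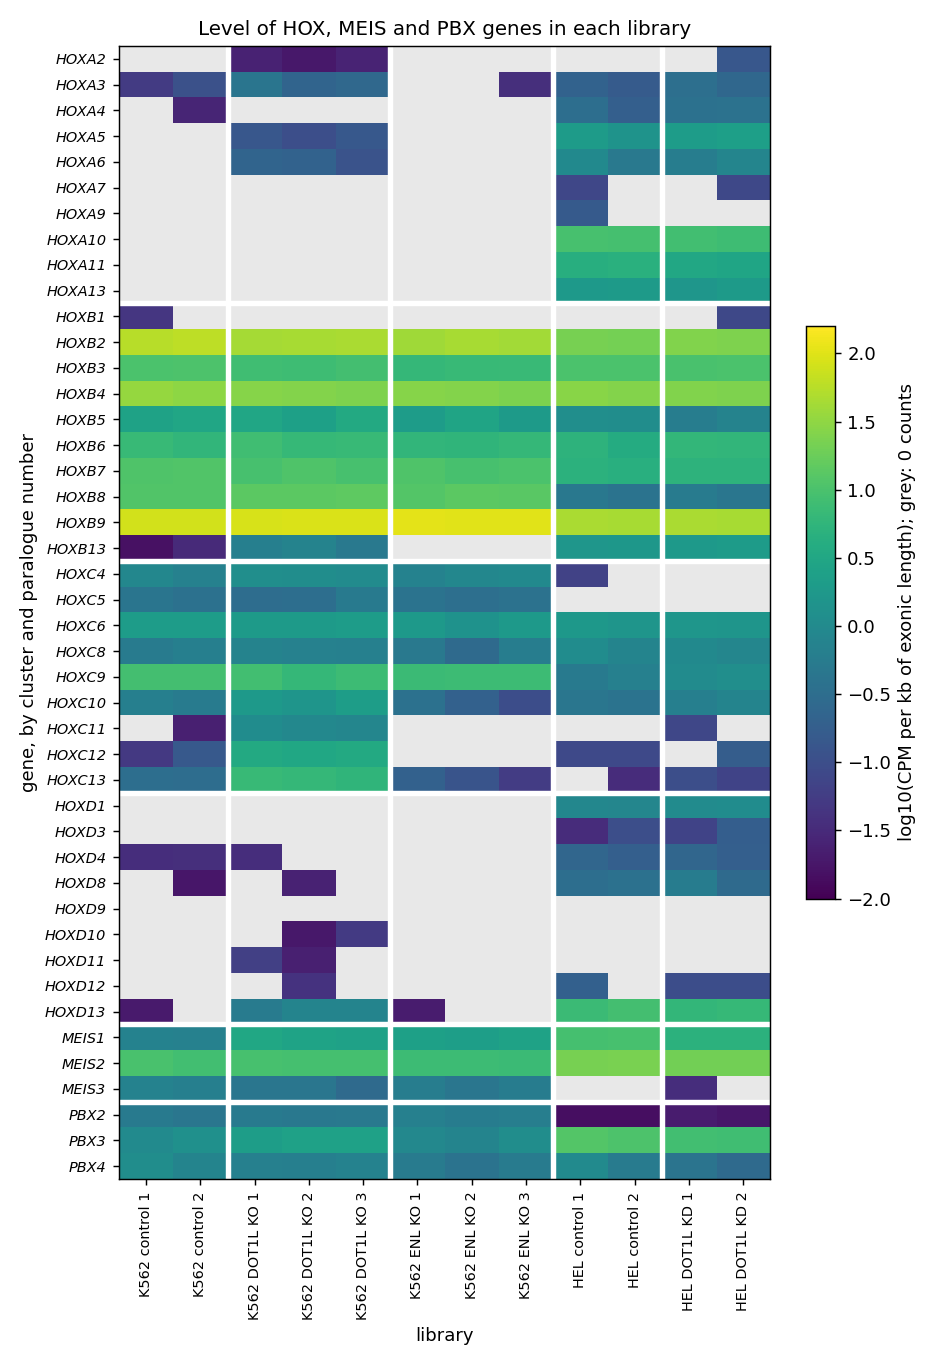
Level of 44 of the 46 members (rows, by cluster) in each of the 12 libraries (columns, by group), as log10 of CPM per kb of exon; grey cells hold 0 counts. HOXB2 to HOXB9 are filled in every library of both lines, HOXA and HOXD are nearly empty in K562 and partly filled in HEL, and the HOXC13 end of HOXC is filled in the DOT1L knockout.

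The clusters differed in how much RNA they gave. Summed over its genes, HOXB gave 476 ± 0.618 CPM in K562 controls (SD, n = 2), 462 ± 3.80 in the DOT1L knockout (SD, n = 3) and 479 ± 9.15 in the ENL knockout (SD, n = 3). HOXB gave 276 ± 9.36 CPM in HEL controls and 280 ± 4.18 in the knockdown (SD, n = 2 each). Per kb of exon, the sum over HOXB was 215 to 216 CPM per kb in K562 controls and 114 to 120 in HEL controls, above the 13.6 to 13.7 of HOXC in K562 controls and the 23.5 to 25.3 of HOXA in HEL controls. HOXC gave 24.2 CPM in both control libraries, 41.4 to 47.5 in the DOT1L knockout and 18.8 to 20.6 in the ENL knockout, so these groups did not overlap. In HEL, HOXC gave 7.38 to 8.39 CPM in controls and 9.19 to 9.23 in the knockdown. HOXA gave 0.418 to 0.520 CPM in K562 controls, 2.40 to 3.59 in the DOT1L knockout and 0 to 0.130 in the ENL knockout, against 64.1 to 67.2 in HEL controls and 59.5 to 60.2 in the HEL knockdown. HOXD gave 0.0930 to 0.0946 CPM in K562 controls, 1.45 to 1.99 in the DOT1L knockout, 0 to 0.0483 in the ENL knockout, 20.4 to 23.7 in HEL controls and 18.4 to 18.9 in the knockdown. The HOXA and HOXD clusters were thus almost without RNA in K562 and gave RNA in HEL. Most of the HOXD sum in HEL came from 1 gene. In HEL controls HOXD13 had a mean of 19 CPM of the 22.1 of the cluster, and 5 of the 9 HOXD genes were silent.

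Of the 46 members, 28 passed the filter on low counts in the K562 fit and 27 in the HEL fit. In the DOT1L knockout against control, edgeR's quasi-likelihood test called 14 of the 28 higher and 4 lower at an adjusted p under 0.05, beside 51.1% of 14301 genes called in all, 26.9% higher and 24.2% lower. The median log2 fold change of the 28 was 0.21, beside 0.011 over all genes tested. Of the 14, 7 passed the filter through the DOT1L knockout alone and therefore had to differ, HOXA3, HOXB13, HOXC11, HOXC12 and HOXD13 among them, so the count of 14 is a description. In the ENL knockout against control 3 of the 28 were higher and 9 lower, beside 41.0% of all genes called, 18.8% higher and 22.2% lower. HOXC12, 1 of the 9, was within 3 counts in both groups. The members' median log2 fold change was -0.32, or -0.30 over the 23 members with a count above 3 in either group, beside 0.003 over all genes. Both comparisons use the same 2 control libraries. Set against the ENL knockout without the controls, the DOT1L knockout had 14 members higher and 2 lower, the same 7 among the 14. Over all genes 60.2% were called, 31.8% higher and 28.3% lower, and the member median was 0.33 beside 0.000. In HEL the knockdown had 4 of 27 members higher and 8 lower, beside 55.0% of 12635 genes called, 27.0% higher and 28.0% lower, with a median of 0.00 beside 0.013. The 12 of 27 members called in HEL were not above the background share. At a log2 fold change of at least 1 in either direction, 11 members were called in the DOT1L knockout. Among them were the 7 that passed the filter through it alone. In the ENL knockout 5 were called, HOXC12 among them, with 10 between the knockouts and 1 in the HEL knockdown. Over all genes tested, 1680 were higher and 585 lower at this size in the DOT1L knockout, and 413 and 1160 in the ENL knockout. Between the knockouts these were 2198 and 546, and in HEL 426 and 312. These are bulk libraries, in which fewer cells that express a gene and less of its RNA per cell cannot be told apart.

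**Figure D2:**
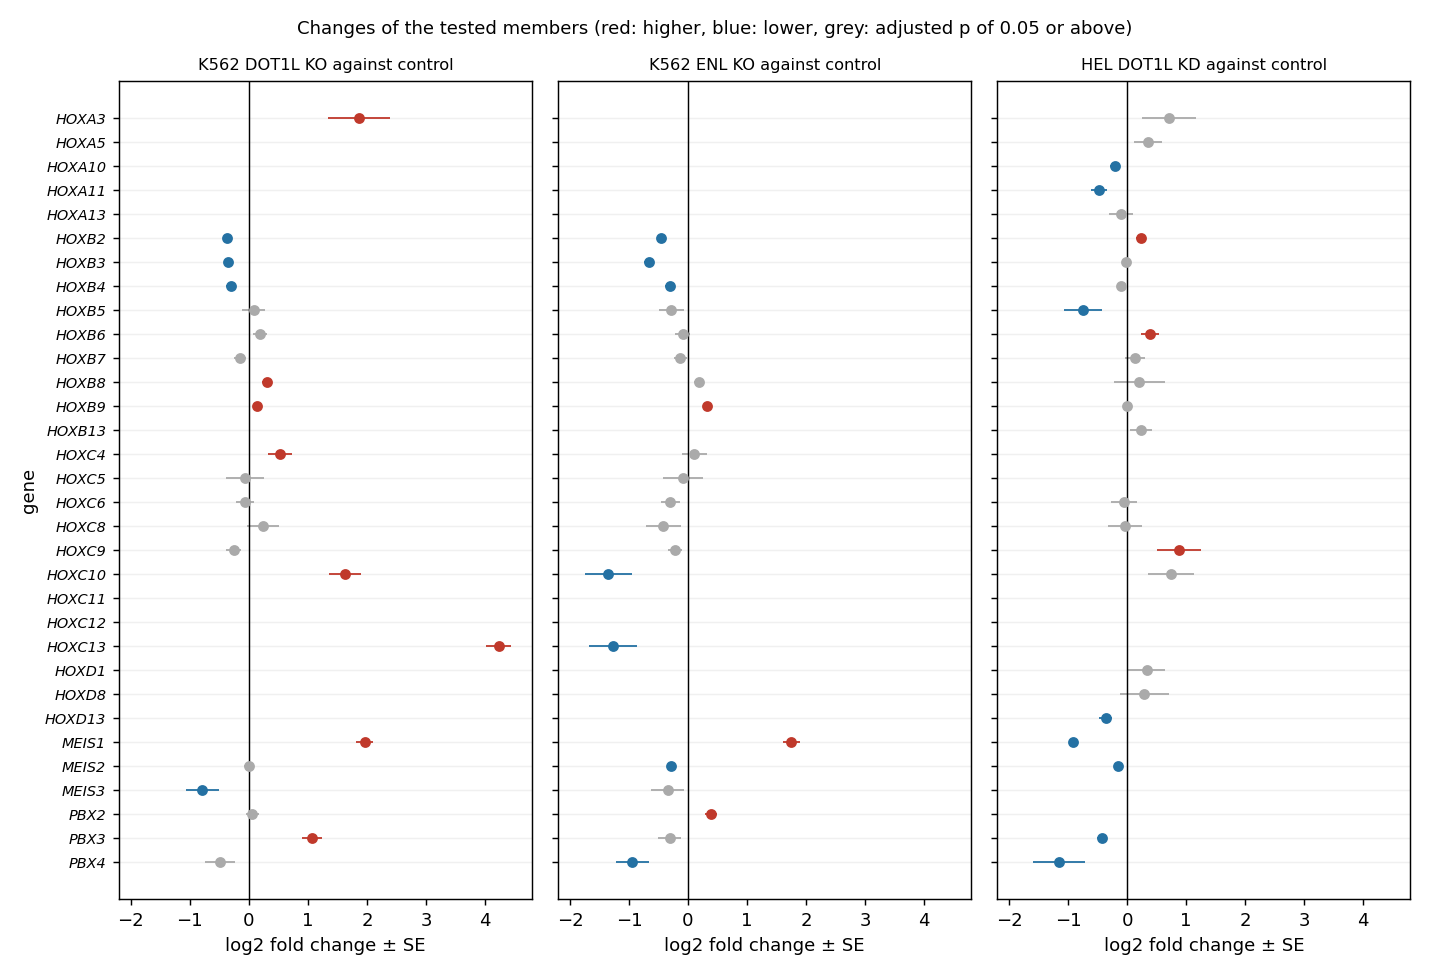
Log2 fold change with its standard error for members with a fold that can be given, in the DOT1L knockout and ENL knockout of K562 and the DOT1L knockdown of HEL, each against its control; red points are called higher, blue lower and grey not called at an adjusted p of 0.05. HOXC13 at 4.23 and MEIS1 at 1.96 stand out in the DOT1L knockout, MEIS1 at 1.75 in the ENL knockout, and MEIS1 at -0.91 in the knockdown.

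HOXC, on chromosome 12 from 53938831 to 54056030 in the hg38 positions of the tables, held the largest log2 fold change of any member with more than 3 counts in control. Its genes run from HOXC13 at the low coordinate to HOXC4 at the high one, and the 4 genes at the HOXC13 end were higher in the DOT1L knockout. HOXC13, a gene known for its part in hair and nail growth, had 17 and 16 counts in controls, 349, 433 and 283 in the DOT1L knockout, and 10, 6 and 2 in the ENL knockout. In CPM these were 0.790 and 0.757, then 15.9, 14.6 and 13.4, then 0.483, 0.292 and 0.130, so no groups overlapped. The log2 fold change was 4.23 in the DOT1L knockout (SE 0.207, adjusted p = 1.78e-09). In the ENL knockout HOXC13 fell by 1.27 on the log2 scale (SE 0.402, adjusted p = 0.0217), and this call was lost without control 1, control 2, ENL knockout 2 or ENL knockout 3. Between the knockouts the log2 difference was 5.50 (SE 0.214, adjusted p = 8.58e-11).

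HOXC12, the next gene, had 1 and 3 counts in controls, 74, 88 and 71 in the DOT1L knockout and 0 in each ENL knockout library. The 2 control libraries together hold few counts, so the ratio of summed levels, 34.2, has a 95% counting interval of 13.2 to 126. The test gave an adjusted p of 1.17e-06, and the level was at least 16.5-fold above the floor of 3 counts per library in the ENL knockout. HOXC11 had 0 and 1 counts in controls, 50, 55 and 37 in the DOT1L knockout and 0 in the ENL knockout, a ratio to control of 83.3 with an interval of 14.7 to 3312 (adjusted p = 7.97e-06). It was at least 10-fold above the floor of the ENL knockout. Both genes went from silent to present in each of the 3 DOT1L knockout libraries. They passed the filter through that knockout alone, where they are high, so their adjusted p is a description. In the ENL knockout HOXC12 passed the test as lower (adjusted p = 0.0433), but both groups were within 3 counts and no fold is given.

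HOXC10, the fourth gene from that end, had 27 and 23 counts in controls, 81, 91 and 90 in the DOT1L knockout and 15, 8 and 3 in the ENL knockout. The groups did not overlap in CPM, at 1.26 and 1.09 in controls, 3.07 to 4.26 in the DOT1L knockout and 0.195 to 0.725 in the ENL knockout. HOXC10 rose by 1.63 on the log2 scale in the DOT1L knockout (SE 0.276, adjusted p = 0.000251) and fell by 1.35 in the ENL knockout (SE 0.399, adjusted p = 0.0155). The latter call was lost without control 1 (adjusted p = 0.092) and without ENL knockout 2 (adjusted p = 0.0542). Per length, the mean level in the DOT1L knockout was 6.21 ± 0.522 CPM per kb for HOXC13, 3.40 ± 0.236 for HOXC12, 0.962 ± 0.135 for HOXC11 and 1.87 ± 0.303 for HOXC10 (SD, n = 3), so HOXC13 was the highest of the 4.

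The remaining HOXC genes moved little in the DOT1L knockout. HOXC9 had 282 and 285 counts in controls and 279, 277 and 242 in the DOT1L knockout, a log2 fold change of -0.26 (adjusted p = 0.0871), which passed without DOT1L knockout 1 (adjusted p = 0.0241). Its counts in the ENL knockout were 232, 236 and 179 (log2 fold change -0.22, adjusted p = 0.181). HOXC8 had 29 and 33 counts in controls, 40, 51 and 34 in the DOT1L knockout and 25, 14 and 22 in the ENL knockout. Neither knockout differed from control (adjusted p = 0.483 and 0.284), while the knockouts differed from each other by 0.66 (adjusted p = 0.0395), a call lost without any 1 of the DOT1L knockout libraries or ENL knockout 2. HOXC6 had 100 and 98 counts in controls, 97, 128 and 98 in the DOT1L knockout and 87, 64 and 62 in the ENL knockout (adjusted p = 0.765 and 0.157). HOXC5 had 20 and 17, then 15, 21 and 24, then 18, 15 and 13 counts, and its groups overlapped. HOXC4, which is expressed in lymphoid cells, had 44 and 35 counts in controls, 61, 80 and 52 in the DOT1L knockout and 35, 43 and 35 in the ENL knockout. Its log2 fold change of 0.52 in the DOT1L knockout (adjusted p = 0.049) was lost without any 1 of the 5 libraries, so it is at the edge of the test. HOXC4, HOXC5 and HOXC6 share 24.0% to 25.9% of their exon bases with one another in the tables, so their counts can be incomplete.

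**Figure D3:**
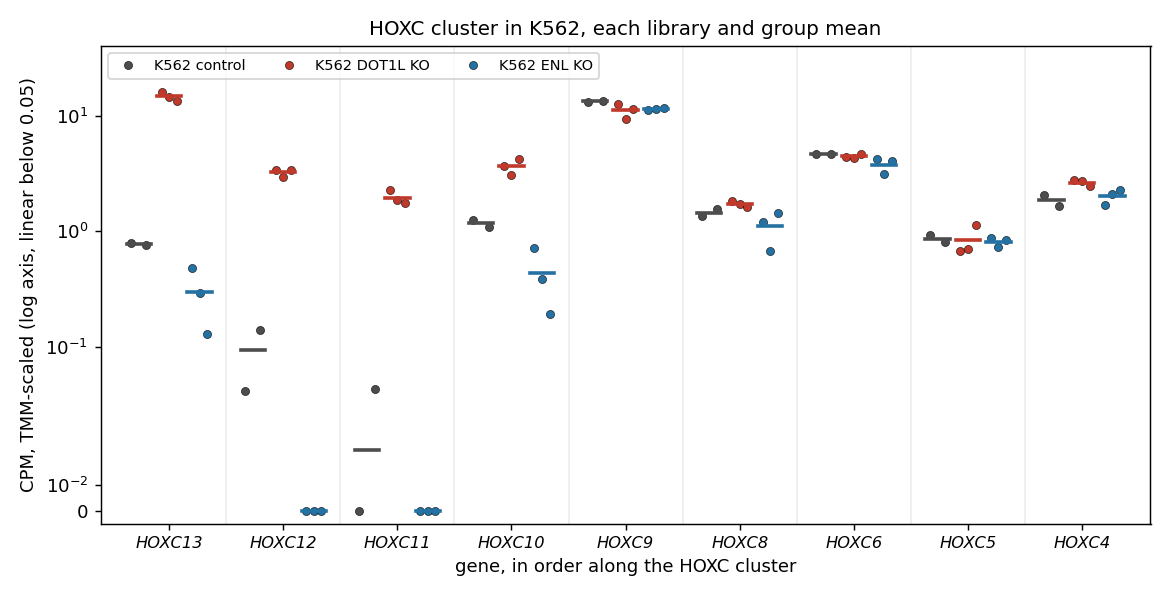
CPM of the 9 HOXC genes in cluster order from HOXC13 to HOXC4 in K562; points are libraries, short bars are group means, and the vertical axis is logarithmic above 0.05 CPM and linear below. The DOT1L knockout lies above control from HOXC13 to HOXC10 and near it from HOXC9 onward. The ENL knockout lies below control at HOXC13 and HOXC10, and also at HOXC12, where both groups hold at most 3 counts per library.

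HEL showed another HOXC pattern. HOXC4, HOXC5, HOXC11, HOXC12 and HOXC13 were silent in both HEL groups, with 0 to 3 counts in each library. HOXC6 had 48 and 44 counts in controls and 45 and 43 in the knockdown (log2 fold change -0.05, adjusted p = 0.868). HOXC8 had 33 and 24 against 30 and 25 (log2 fold change -0.04, adjusted p = 0.922). HOXC10 had 11 and 10 counts in HEL controls and 16 and 19 in the knockdown, a log2 fold change of 0.74 that did not pass (SE 0.394, adjusted p = 0.105). HOXC9 had 10 and 13 counts in controls and 20 and 22 in the knockdown, which passed at 0.88 (SE 0.370, adjusted p = 0.0408) but was lost when any of the 4 libraries was left out. HOXC9 and HOXC10 passed the filter through the knockdown alone.

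HOXD, on chromosome 2 from 176092804 to 176190907, was silent throughout in K562 controls and in the ENL knockout. HOXD13, the terminal gene of the cluster and a gene of limb and digit formation, had 1 and 0 counts in controls, 29, 54 and 38 in the DOT1L knockout and 1, 0 and 0 in the ENL knockout. Every DOT1L knockout library was above every other K562 library. HOXD13 passed the K562 filter through the DOT1L knockout alone, so its adjusted p there is a description. The ratio to control was 70.9 with a 95% counting interval of 12.5 to 2825 (adjusted p = 6.61e-06), and the ratio to the ENL knockout was 94.2 with an interval of 16.6 to 3749. Its level in the DOT1L knockout, 1.32, 1.82 and 1.80 CPM, remained below the 17.3 and 20.7 of HEL controls. The other 8 HOXD genes stayed silent in the DOT1L knockout with 0 to 2 counts in each library, HOXD12 among them with 0, 1 and 0.

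The sequence before the start of HOXD13 is shown beside that of HOXD12, because these neighbours parted in the DOT1L knockout, and MEIS1 is shown because it was called in all 3 depletions. The sequences are the 250 bases before the RefSeq start in GRCh38.p14, plus strand, 5′ to 3′, with CG dinucleotides and the letters TATAAA or their reverse complement TTTATA in capitals. HOXD13 is at chr2:176092471-176092720, HOXD12 at chr2:176099545-176099794 and MEIS1 at chr2:66434875-66435124.
HOXD13: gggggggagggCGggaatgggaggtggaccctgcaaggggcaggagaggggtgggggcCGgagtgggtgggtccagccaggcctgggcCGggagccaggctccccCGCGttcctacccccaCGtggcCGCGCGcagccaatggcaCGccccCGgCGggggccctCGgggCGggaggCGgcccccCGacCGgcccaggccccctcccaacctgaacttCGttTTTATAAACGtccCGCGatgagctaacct
HOXD12: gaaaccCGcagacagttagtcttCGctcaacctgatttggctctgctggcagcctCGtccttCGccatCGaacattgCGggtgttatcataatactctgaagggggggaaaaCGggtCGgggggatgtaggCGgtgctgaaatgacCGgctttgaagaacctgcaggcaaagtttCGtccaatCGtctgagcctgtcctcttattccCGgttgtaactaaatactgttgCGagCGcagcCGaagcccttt
MEIS1: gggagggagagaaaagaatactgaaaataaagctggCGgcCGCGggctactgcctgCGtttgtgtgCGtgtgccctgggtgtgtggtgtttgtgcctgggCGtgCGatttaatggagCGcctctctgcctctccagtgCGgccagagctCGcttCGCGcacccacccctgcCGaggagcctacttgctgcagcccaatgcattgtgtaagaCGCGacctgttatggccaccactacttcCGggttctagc
HOXD13 had 21 CG dinucleotides and 74.0% G or C, HOXD12 had 16 and 53.2%, and MEIS1 had 16 and 59.6%. TATAAA began 27 bases before the HOXD13 start, with the overlapping reverse complement 29 bases before it, and neither was in the windows of HOXD12 and MEIS1. Of the 46 members 26 had a promoter in the RefSeq table, and 4 of these, HOXA3, HOXA9, HOXA10 and HOXD13, held TATAAA on either strand, or 15.4% beside 11.1% of all 27303 promoters. Their median was 20.5 CG dinucleotides, from 4 to 40, beside 11 for all promoters. Among those with no promoter read were HOXA5, HOXB2 to HOXB9, HOXB13, HOXC6, HOXC8 to HOXC13 and HOXD9.

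In HEL, HOXD13 was the highest HOXD gene per length, at a mean of 8.16 CPM per kb in controls beside 0.866 for HOXD1. It had 216 and 261 counts in controls and 180 and 188 in the knockdown, or 17.3 and 20.7 against 14.3 and 15.3 CPM. The groups did not overlap, and HOXD13 fell by 0.36 on the log2 scale (SE 0.110, adjusted p = 0.00483). Without control 2 the log2 fold change was -0.22 (adjusted p = 0.163), and DESeq2 gave an adjusted p of 0.0903. HOXD1, at the other end of the cluster, had 21 and 20 counts against 25 and 26 (log2 fold change 0.33, adjusted p = 0.379). HOXD8 had 11 and 12 against 19 and 9 (log2 fold change 0.29, adjusted p = 0.572). HOXD4 had 3 or 4 counts in each HEL library and HOXD3 had 1 to 5, which were too few to test. HOXD12 had 0 to 2 counts in HEL. HOXD9 to HOXD11, the genes between HOXD12 and HOXD8, had 0 counts in the HEL libraries, so HOXD13 was present beside silent neighbours in HEL as in the DOT1L knockout of K562.

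HOXA, on chromosome 7, had 9 silent genes of 11 in K562 controls. HOXA3, a gene of pharyngeal arch development, had 4 and 8 counts in K562 controls, 33, 23 and 19 in the DOT1L knockout and 0, 0 and 2 in the ENL knockout. Its log2 fold change in the DOT1L knockout was 1.87 (SE 0.528, adjusted p = 0.00941), and 1.44 without control 1 (adjusted p = 0.105). HOXA3 passed the K562 filter through the DOT1L knockout alone, so this call is a description. In the ENL knockout it was 7.96-fold lower with a counting interval of 1.77 to 73.3 (adjusted p = 0.0485), a call lost without either control or without ENL knockout 1 or 2. HOXA3 had 9 and 7 counts in HEL controls and 15 and 11 in the knockdown, and did not pass (log2 fold change 0.71, adjusted p = 0.185).

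HOXA5 and HOXA6 appeared in the DOT1L knockout at counts too low to test. HOXA5 had 5 counts in each of the 3 DOT1L knockout libraries and 0 in every other K562 library. HOXA6 had 4, 5 and 2 in the DOT1L knockout and 0 elsewhere in K562. HOXA10, HOXA11 and HOXA13, the genes of the other end of the cluster, had no count in any K562 library, and HOXA2, HOXA4, HOXA7 and HOXA9 had at most 1.

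HEL had RNA from HOXA10, HOXA11 and HOXA13. HOXA10, which is active in myeloid progenitors, had 376 and 371 counts in controls and 342 and 304 in the knockdown. HOXA10 fell by 0.20 on the log2 scale (adjusted p = 0.0446), a call lost without control 1, control 2 or knockdown 2, and it shares 38.4% of its exon bases with the read-through gene HOXA10-HOXA9, listed at 0, and an antisense gene. HOXA11 had 142 and 154 counts against 112 and 98 and fell by 0.48 (SE 0.138, adjusted p = 0.00262; by DESeq2 0.0699), and its groups did not overlap. HOXA13 had 57 and 62 against 50 and 60 (log2 fold change -0.10, adjusted p = 0.702), and HOXA5 had 42 and 30 against 43 and 48 (log2 fold change 0.35, adjusted p = 0.218). HOXA4 had 4 to 8 counts and HOXA6 had 5 to 10 in each HEL library, too few to test. HOXA9, a HOXA gene known for its part in myeloid leukaemia, had 4, 0, 0 and 0 counts in the HEL libraries. It shares 72.4% of its exon bases with the read-through gene, so its reads may be uncounted. HOXA7, with at most 2 counts in a library, shares 74.6% of its exon bases with the antisense gene HOXA-AS3, and the use of strand in the counting is not given in the sources used here.

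**Figure D4:**
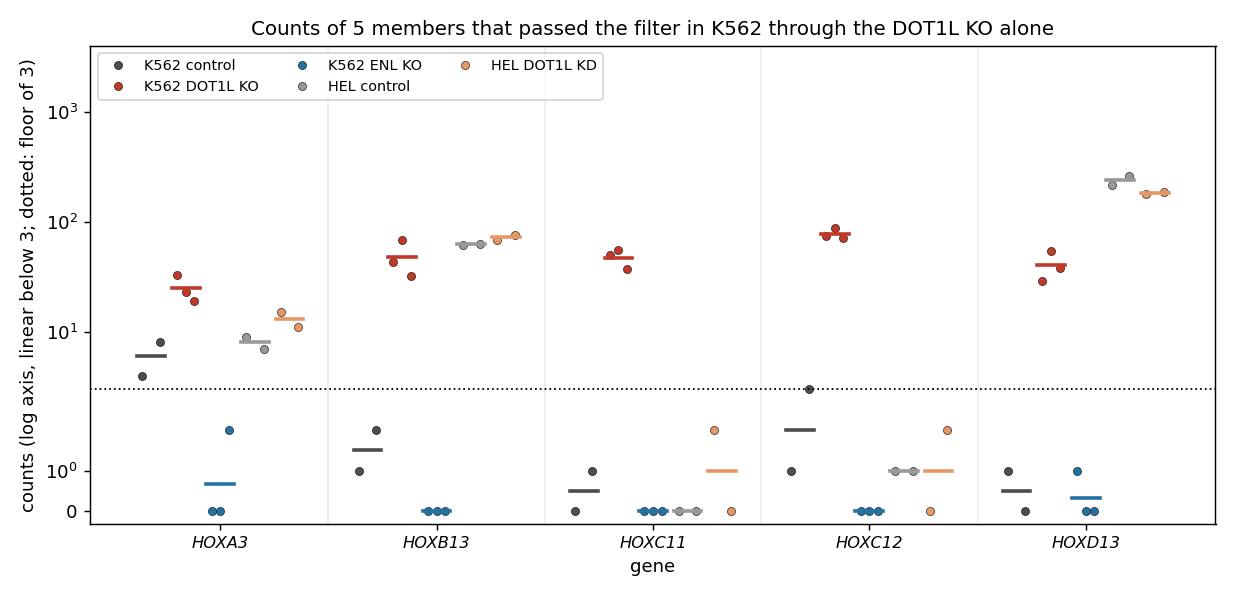
Counts of HOXA3, HOXB13, HOXC11, HOXC12 and HOXD13 in each of the 12 libraries, coloured by group, with a dotted line at 3 counts and an axis that is logarithmic above it. These 5 genes passed the K562 filter through the DOT1L knockout alone, so the high counts of that knockout were set by the choice of genes. The 3 DOT1L knockout libraries are above the line for all 5 genes, the ENL knockout libraries are at or below it, and HOXC11 and HOXC12 are at or below it in HEL.

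HOXB, on chromosome 17 from 48529445 to 48728749, had RNA in both lines from HOXB2 to HOXB9. In HEL the level of HOXB8 was low, at a mean of 0.437 CPM per kb in controls beside 1.64 for HOXB13. Per kb of exon HOXB9 was the highest member, at 83.0 and 82.7 CPM per kb in K562 controls and 47.0 and 45.4 in HEL controls. HOXB2 followed in K562 controls at 55.6 and 60.4, and HOXB4 at 33.8 and 30.1. The changes in HOXB were small beside those in HOXC. HOXB2, a hindbrain gene, had 89.1 and 96.8 CPM in controls, 68.8, 72.5 and 74.1 in the DOT1L knockout and 64.0, 71.2 and 66.9 in the ENL knockout. Controls lay above both knockouts, and HOXB2 fell by 0.37 (SE 0.0663, adjusted p = 0.000371) and by 0.46 (adjusted p = 9.15e-05) on the log2 scale. In HEL it rose by 0.23 in the knockdown, from 35.0 and 33.4 to 40.4 and 39.7 CPM (SE 0.0725, adjusted p = 0.00659), a call lost without control 2.

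HOXB3 was at 41.3 and 43.1 CPM in K562 controls, 32.7, 31.5 and 35.5 in the DOT1L knockout and 25.1, 27.3 and 27.9 in the ENL knockout, with no overlap. It fell by 0.35 (adjusted p = 0.00237) and by 0.66 (adjusted p = 2.14e-05), and the knockouts differed by 0.31 (adjusted p = 0.00237). Its HEL levels overlapped, at 41.0 and 40.5 in controls and 39.0 and 41.3 in the knockdown. HOXB4, known for expanding blood stem cells when overexpressed, was at 68.8 and 61.2 CPM in K562 controls, 55.7, 52.6 and 49.7 in the DOT1L knockout and 56.0, 54.2 and 48.0 in the ENL knockout. It fell by 0.30 in each (adjusted p = 0.00704 and 0.0103), and both calls were lost without control 1, at -0.22 and -0.21 (adjusted p = 0.112 and 0.153). In HEL, HOXB4 was at 56.6 and 52.9 CPM in controls and 52.0 and 49.6 in the knockdown (log2 fold change -0.11, adjusted p = 0.136).

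The genes from HOXB5 to HOXB7 passed in neither knockout against control. HOXB5 was at 4.79 and 5.53 CPM in controls, 4.46 to 6.58 in the DOT1L knockout and 3.52 to 5.26 in the ENL knockout. HOXB6 was at 11.2 and 9.65 CPM in controls, 10.8 to 13.5 in the DOT1L knockout and 9.34 to 10.4 in the ENL knockout, and HOXB7 at 15.3 and 15.5, 13.1 to 15.2 and 12.8 to 15.4. In HEL, HOXB5 had 27 and 26 counts in controls and 14 and 17 in the knockdown and fell by 0.75 on the log2 scale (adjusted p = 0.0461), while HOXB6 had 109 and 81 against 127 and 119 and rose by 0.39 (adjusted p = 0.0279). The HOXB5 call was lost without any 1 of the 4 libraries, and that of HOXB6 without control 2, knockdown 1 or knockdown 2. HOXB6 also differed between the K562 knockouts, by 0.28 (adjusted p = 0.0448), a call lost without DOT1L knockout 1 or 3 or ENL knockout 1 or 2. HOXB7 had 84 and 77 against 88 and 86 in HEL and did not pass (adjusted p = 0.544).

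At the far end of the continuous cluster, HOXB8 and HOXB9 were higher. HOXB8, which blocks myeloid differentiation when overexpressed, was at 20.7 and 21.0 CPM in K562 controls, 25.8, 25.2 and 26.3 in the DOT1L knockout and 21.9, 25.4 and 24.3 in the ENL knockout. It rose by 0.30 in the DOT1L knockout (SE 0.0854, adjusted p = 0.00932), a call lost without control 1 (adjusted p = 0.0652) or control 2 (adjusted p = 0.0512), and its 0.19 in the ENL knockout did not pass (adjusted p = 0.0928). HOXB9 was at 224 and 223 CPM in controls, 242, 247 and 248 in the DOT1L knockout and 283, 282 and 274 in the ENL knockout, with no overlap. It rose by 0.32 in the ENL knockout (SE 0.0494, adjusted p = 0.000153) and by 0.14 in the DOT1L knockout (adjusted p = 0.0329), the smaller of which was lost without any 1 of the 5 libraries. The knockouts differed by -0.19 in HOXB9 (adjusted p = 0.00226). In HEL, HOXB9 was at 127 and 123 CPM in controls and 127 and 122 in the knockdown, and HOXB8 had 9 to 13 counts in each library, and neither passed.

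HOXB13, a prostate and hindgut gene set apart from the rest of the cluster, was silent in K562 controls. It had 1 and 2 counts in K562 controls, 43, 68 and 32 in the DOT1L knockout and 0 in the ENL knockout. HOXB13 passed the K562 filter through the DOT1L knockout alone, so its adjusted p there is a description. The ratio to control was 27.9 with a counting interval of 9.37 to 137 (adjusted p = 1.52e-05), and the level was at least 9.84-fold above the floor of the ENL knockout. In HEL, HOXB13 had 62 and 63 counts in controls and 69 and 76 in the knockdown (log2 fold change 0.23, adjusted p = 0.304). HOXB1, at the opposite end, had at most 1 count in any library.

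MEIS1, a HOX cofactor known to act with HOXA9 in leukaemia, was with HOXB2 one of the 2 members called against control in all 3 depletions. It was at 3.35 and 3.22 CPM in K562 controls, 14.5, 12.2 and 11.5 in the DOT1L knockout and 11.1, 10.3 and 11.9 in the ENL knockout. Both knockouts lay above control, with log2 fold changes of 1.96 (SE 0.144, adjusted p = 9.87e-08) and 1.75 (SE 0.148, adjusted p = 6.60e-07). The knockouts overlapped each other, and their difference of 0.21 (SE 0.107) did not pass (adjusted p = 0.115). In HEL, MEIS1 was at 42.1 and 43.1 CPM in controls and 22.8 and 22.6 in the knockdown and fell by 0.91 (SE 0.0787, adjusted p = 1.98e-14). The level after the knockdown in HEL was still above that of either K562 knockout. MEIS1 kept its call in all of these when any 1 library was left out.

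MEIS2, a related cofactor, was the more abundant of the pair in K562 controls per length, at 9.72 and 8.60 CPM per kb beside 0.733 and 0.704 for MEIS1. It was at 43.0 and 38.0 CPM in controls and 41.5, 40.3 and 40.0 in the DOT1L knockout, which overlapped (log2 fold change 0.00, SE 0.0747, adjusted p = 0.972). In the ENL knockout it was at 33.8, 34.1 and 32.1 CPM and fell by 0.28 (adjusted p = 0.00945), or by 0.19 without control 1 (adjusted p = 0.161). The knockouts differed by 0.28 in MEIS2 (adjusted p = 0.00263). In HEL, MEIS2 fell by 0.15, from 95.9 and 101 to 89.2 and 89.1 CPM (adjusted p = 0.0087), a call lost without control 2. MEIS3 had 35 and 30 counts in K562 controls, 22, 29 and 13 in the DOT1L knockout and 28, 20 and 20 in the ENL knockout. It fell by 0.79 in the DOT1L knockout (SE 0.282, adjusted p = 0.0306), which was lost without control 1, control 2 or DOT1L knockout 3, and it was silent in HEL.

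PBX3, a partner of HOXA9 and MEIS1 in leukaemia, followed MEIS1 in direction in both DOT1L depletions. It was at 3.16 and 4.02 CPM in K562 controls, 6.77, 7.80 and 7.95 in the DOT1L knockout and 2.85, 2.43 and 3.52 in the ENL knockout. The DOT1L knockout lay above the other 2 groups, up 1.07 on the log2 scale against control (SE 0.167, adjusted p = 0.000129) and 1.38 against the ENL knockout (SE 0.155, adjusted p = 4.27e-06). The ENL knockout overlapped control (log2 fold change -0.31, adjusted p = 0.222), where MEIS1 had risen. In HEL, PBX3 was at 36.8 and 33.0 CPM in controls and 26.6 and 25.4 in the knockdown and fell by 0.43 (SE 0.0818, adjusted p = 1.47e-05).

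PBX4 had 42 and 29 counts in K562 controls, 26, 33 and 27 in the DOT1L knockout and 20, 14 and 15 in the ENL knockout. It fell by 0.94 in the ENL knockout (SE 0.281, adjusted p = 0.0168), a call lost without control 1 (adjusted p = 0.202) or ENL knockout 2 (adjusted p = 0.0657), and the DOT1L knockout did not pass (log2 fold change -0.49, adjusted p = 0.132). In HEL it had 22 and 12 counts in controls and 9 and 6 in the knockdown and fell by 1.15 (SE 0.442, adjusted p = 0.024), a call lost without control 1 or knockdown 2. PBX4 passed the HEL filter through the control group alone, where it is high, and is the 1 member called there at a log2 fold change of at least 1. PBX2 was at 11.6 and 10.0 CPM in K562 controls, 11.8, 10.9 and 11.1 in the DOT1L knockout and 15.2, 13.3 and 14.1 in the ENL knockout. PBX2 rose by 0.39 in the ENL knockout (SE 0.108, adjusted p = 0.0106), or 0.29 without control 2 (adjusted p = 0.126). In HEL it had 4 to 6 counts in each library. The tables list PBX2 on 6 alternative sequences of chromosome 6 besides the main one, and of 19 such chromosome 6 genes with at least 100 counts in K562 controls 13 had at most 10 in HEL controls, beside 4.82% of genes on 1 chromosome sequence. The PBX2 counts of the 2 lines therefore cannot be compared.

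**Figure D5:**
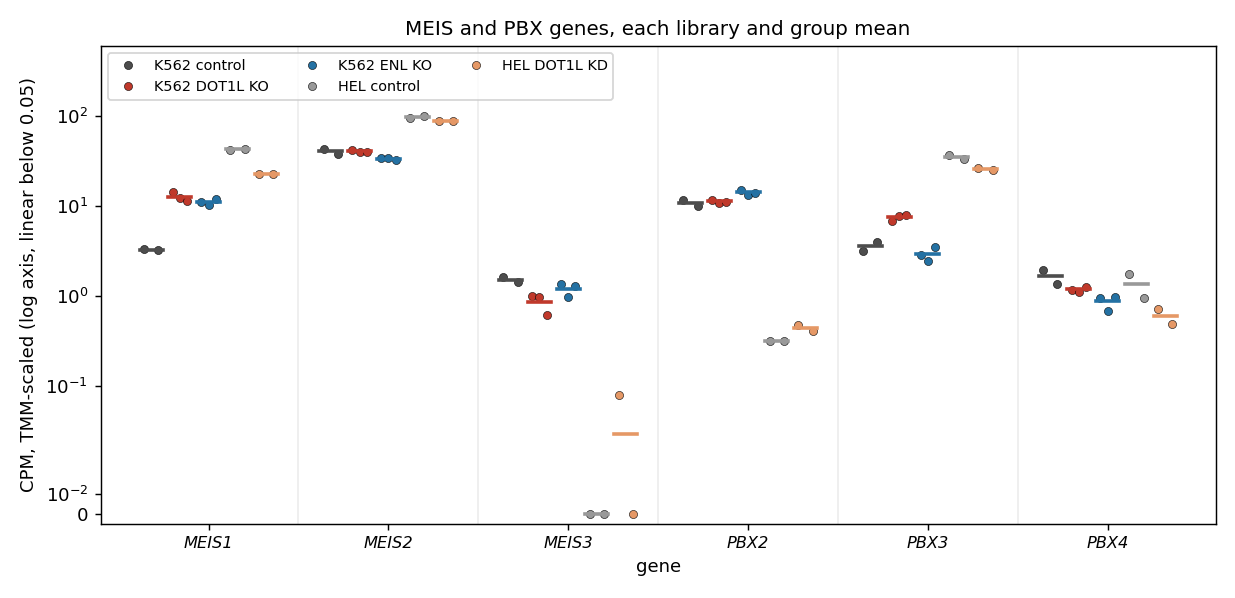
CPM of 3 MEIS and 3 PBX genes in the 5 groups; points are libraries and short bars are group means, and the vertical axis is logarithmic above 0.05 CPM and linear below. MEIS1 lies above control in both K562 knockouts and below it in the HEL knockdown, and PBX3 is high in the DOT1L knockout alone within K562.

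The difference between the HEL and K562 responses to DOT1L depletion was tested directly in a joint fit of 9 libraries. Of 36 members tested 12 passed, beside 38.9% of 15367 genes, with 9 of them lower in HEL relative to K562 and 3 higher. MEIS1 differed by -2.84 on the log2 scale (SE 0.169, adjusted p = 2.12e-11) and PBX3 by -1.48 (SE 0.177, adjusted p = 8.66e-07), having risen in K562 and fallen in HEL, as HOXD13 also did. HOXB2 differed in the opposite sense, by 0.62 (SE 0.0981, adjusted p = 3.19e-05), having fallen in K562 and risen in HEL. HOXC11, HOXC12 and HOXC13 had 0 to 3 counts in HEL, where no fold can be given, and of these HOXC12 passed (adjusted p = 0.0316) and the others did not (adjusted p = 0.95 and 0.454). Line, knockout or knockdown, and counting of fragments or reads go together here and cannot be told apart.

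Other genes near the members or acting with them were taken from fixed lists. Their counts stand beside 51.1% of all genes tested called in the DOT1L knockout, 41.0% in the ENL knockout and 55.0% in the HEL knockdown. Of 6 TALE partners, PKNOX and TGIF genes among them, 5 were tested in K562, with 2 higher and 1 lower in the DOT1L knockout (median log2 fold change -0.01) and 0 higher and 2 lower in the ENL knockout (median -0.28). In HEL 2 of 4 were higher (median 0.10). Of 23 noncoding RNAs of the HOX clusters 21 were in the tables and 4 tested in K562, with 1 higher in the DOT1L knockout (median 0.29) and 0 called in the ENL knockout (median 0.18). HOTAIRM1, a noncoding RNA of the HOXA cluster, had 5 and 1 counts in controls and 13, 19 and 14 in the DOT1L knockout. It had 0, 2 and 1 in the ENL knockout. In the DOT1L knockout it was up 2.12 on the log2 scale against control (SE 0.586, adjusted p = 0.0081). HOTAIRM1 passed the K562 filter through the DOT1L knockout alone, where it is high, so this call is a description. HOTAIR, an antisense RNA of the HOXC cluster, had 6, 6 and 7 counts in the DOT1L knockout, and HOXC13-AS, which overlaps HOXC13, had 6, 5 and 5. Both were at 0 in controls and in the ENL knockout and were too low to test. In HEL 1 of 6 was higher (median 0.12). This was HAGLR, a noncoding RNA antisense beside HOXD1, with 22 and 25 counts in controls and 51 and 47 in the knockdown, up 1.07 on the log2 scale (adjusted p = 0.00037).

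Genes that flank the clusters did not share a direction. The shares over all genes, for these and the regulators below, were 51.1% called in the DOT1L knockout, 41.0% in the ENL knockout and 55.0% in HEL. Of 11 tested in K562, 4 were higher and 3 lower in the DOT1L knockout (median 0.04) and 4 and 3 in the ENL knockout (median 0.15), and of 12 in HEL 5 were higher and 1 lower (median 0.05). Of 27 regulators of HOX transcription, the targeted genes included, 23 were tested in K562, with 3 higher and 4 lower in the DOT1L knockout (median -0.01) and 4 and 3 in the ENL knockout (median 0.02). In HEL 6 of 22 were higher and 9 lower, and CBX7, a Polycomb subunit, went from 47 and 31 counts to 101 and 94, up 1.33 on the log2 scale (SE 0.198, adjusted p = 1.03e-07).

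Of 12 genes known as targets of HOXA9 and MEIS1 in myeloid leukaemia 11 were tested in each fit. In the DOT1L knockout 5 were higher and 5 lower (median -0.04), in the ENL knockout 2 and 5 (median -0.37), and in the HEL knockdown 4 and 6 (median -0.20). Over all genes tested, 51.1%, 41.0% and 55.0% were called in these comparisons. ID2, an inhibitor of helix-loop-helix factors, was at 29.7 ± 1.39 CPM in K562 controls (SD, n = 2) and 75.8 ± 2.45 in the DOT1L knockout (SD, n = 3), up 1.35 on the log2 scale (SE 0.119). MEF2C went from 66.8 ± 1.76 to 136 ± 6.55 CPM there (log2 fold change 1.03), and BCL2, the survival factor, fell by 1.02 in K562 and by 1.42 in HEL on the log2 scale. SOX4 had 46 and 36 counts in K562 controls and 3, 5 and 2 in the ENL knockout and fell by 3.40 (SE 0.361, adjusted p = 5.68e-06), and it fell by 1.09 in the HEL knockdown. The knockouts of K562 differed from each other by 4.11 in SOX4, 2.07 in ID2, 1.12 in TRIB2 and -1.10 in CDK6.

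Cell type markers moved with the groups as well. Erythroid markers were present in all groups, 12 of 12, and summed to 6969 to 7516 CPM in K562 controls, 10931 to 11522 in the DOT1L knockout and 9032 to 9255 in the ENL knockout. In HEL they summed to 7166 to 7288 in controls and 9842 to 10533 in the knockdown. Of 6 megakaryocytic markers 2 were above 3 counts in K562, ITGA2B and ITGB3, with sums of 7.30 to 9.93 CPM in controls, 33.3 to 35.0 in the DOT1L knockout and 29.4 to 36.9 in the ENL knockout, and GP9, GP1BB and PF4 were among those at or under 3. In HEL 5 of 6 were present, at 2559 to 2618 CPM in controls and 2011 to 2013 in the knockdown. Lymphoid markers summed to 53.9 to 55.6 CPM in K562 controls, 17.3 to 21.8 in the DOT1L knockout and 62.2 to 73.2 in the ENL knockout, with 4, 4 and 3 of 5 above 3 counts, and to 1.03 to 1.98 in HEL with 1 of 5. Stromal and epithelial markers summed to 124 CPM in K562 controls, 91.8 to 101 in the DOT1L knockout and 95.4 to 102 in the ENL knockout with 4 of 4 above 3 counts, and to 2.36 to 6.47 in HEL with 2 of 4. Their part in the changes of HOX, MEIS and PBX genes was not tested.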

How the data were processed

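RNA of 13 samples was sequenced from polyA-selected, strand-marked libraries, per the labels' protocols. The authors deposited raw counts per gene, fragments for K562 and reads for HEL, in 1 table for each line, per the file headers. The submitters' processing notes name fastp 0.13.1, HISAT2 2.1.0, featureCounts 1.6.1 and hg38, beside Bowtie2 2.3.4.1, deepTools and hg19 for which no role is given. The strand setting of the counting is not given in the sources used here. The other 61 samples were not used.

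Groups came from the labels. Identical K562 control columns were counted once, which left 8 K562 and 4 HEL libraries. Counts were fitted with edgeR 4.0.16 in R 4.3.3 (filterByExpr with a minimum count of 10 and a minimum total of 15, TMM scaling, quasi-likelihood test), with p-values adjusted (Benjamini-Hochberg, all tested genes) and a threshold of 0.05. All K562 groups shared 1 fit, HEL had its own, and the interaction of line and depletion had a joint fit of 9 libraries. Exact Poisson intervals (95%) on summed counts give ratios where a group held 1 to 3 counts, and a floor of 3 counts per library gives lower bounds against groups at 0. The fit was tested on simulated data.

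Every member was accounted for by cluster, with values per library for those that passed a filter, except 2 members and 1 marker whose own values are not reported here. Other genes came from lists of TALE partners, HOX cluster noncoding RNAs, flanking genes, regulators and HOXA9 and MEIS1 targets, and were named where called with a log2 change of at least 1 in size. HOTAIR and HOXC13-AS were named after their values were seen. The members and lists were chosen with earlier results of these data known. Alternatives were DESeq2 1.42.0, other scalings and filters, a fold threshold, the replicate number as a block, and each library left out.

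Depth was 15404944 to 29236703 counts per K562 library and 12151495 to 12811688 per HEL library, so 3 counts stand for 0.103 to 0.247 CPM.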

Additional observations from a re-analysis of the deposited data

Results flagged for a closer look

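The change after DOT1L depletion differed between HEL and K562 in a test of the difference itself (edgeR's quasi-likelihood test, joint fit of 9 libraries), and 8 of the members that passed with more than 3 counts in both lines are given here. Cell line goes together with knockout or knockdown and with counting of fragments or reads, so these cannot be told apart. Each value here is the log2 change in the HEL knockdown minus that in the K562 knockout. Of the HOX cofactors, MEIS1 differed by -2.84 and PBX3 by -1.48. For HOXD13 and HOXB13, genes silent in K562 controls and present in HEL controls, the fitted values were -6.12 and -4.42. That of HOXD13 ran from -8.21 to -5.29 with 1 library left out, so its size is uncertain. HOXA5 had 0 counts in K562 controls and 5 in each DOT1L knockout library, so its fitted value of -4.58 depends on the prior count and gives no size. HOXA5 was lost without K562 control 1 or 2 (adjusted p = 0.0688 and 0.065). Higher in HEL relative to K562 were HOXB2 by 0.62, HOXB3 by 0.35 and HOXC9 by 1.16, and the call of HOXB3 was lost without K562 control 2, HEL control 2 or HEL knockdown 2, and that of HOXC9 without HEL control 1 or either HEL knockdown library.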

How the results depend on the processing

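The direction of every called member that was followed held under all alternatives run, and none reversed. Left out for low counts were HOXC12 in the ENL knockout, and HOXA6 and HOXC12 in the joint fit. Leaving aside the threshold on the fold, 12 of the 18 members called in the K562 DOT1L knockout kept the call in every alternative in which they were tested (MEIS1, PBX3, HOXB2, HOXB3, HOXB13, HOXC10 to HOXC13 and HOXD13 among them). The filter at a mean of 1 CPM left HOXB13, HOXC11 and HOXD13 untested. These genes and HOXC12 passed the main filter through the DOT1L knockout alone, where they are high, so their kept calls give no support. With the threshold on the fold again left aside, 4 of 12 in the ENL knockout (MEIS1, HOXB2, HOXB3, HOXB9) kept the call. HOXC12, 1 of these 12, was not followed. In HEL MEIS1 and PBX3 kept the call. Fitted folds of genes near 0 in control moved with the control left out. On the log2 scale they ran from 4.99 to 8.16 for HOXD13, 5.20 to 8.40 for HOXC11 and 4.45 to 5.94 for HOXC12. Their calls were kept, which is a description for the same reason.

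Members called at a log2 fold change of at least 1 were 11 in the DOT1L knockout and 5 in the ENL knockout. Between the knockouts there were 10, and in HEL 1. The counts over all genes at this size are given with the main counts. MEIS1 and PBX3 were under this size in HEL, as were HOXB2 and HOXB3 in both knockouts and HOXB9 in the ENL knockout. A mean of at least 1 CPM left 10 between the knockouts. In HEL no filter left 6 and DESeq2 left 2, MEIS1 and PBX3. Leaving out 1 library gave 12 to 17 members in the DOT1L knockout, 6 to 12 in the ENL knockout, 13 to 16 between the knockouts, 5 to 8 in HEL and 9 to 13 in the joint fit. The ENL knockout had 6 without control 1 and 7 without ENL knockout 2, and HEL had 7 without control 1, 5 without control 2 and 6 without knockdown 2. Counting a gene as silent at 0 counts alone gave 14 genes in K562 controls, 10 in the DOT1L knockout, 8 in HEL controls and 6 in the HEL knockdown. Scaling by library size alone gave summed CPM of 471 for HOXB and 23.9 for HOXC in K562 controls, 472 for HOXB in the DOT1L knockout, 44.9 for MEIS in the ENL knockout and 166 for PBX in HEL controls. In the HEL knockdown it gave 60.5 for HOXA, 9.32 for HOXC and 113 for MEIS. The cause of these shifts was not tested.

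With the replicate number as a block, 17, 11, 16 and 11 members were called in the DOT1L knockout, the ENL knockout, between the knockouts and in HEL. The labels do not say that a number marks a shared culture. Deviations of same-numbered DOT1L and ENL knockout libraries correlated at 0.22, 0.0531 and 0.0948. Those of differently numbered DOT1L and ENL knockout libraries ran from -0.158 to 0.0709. Control 1 correlated at 0.144 with DOT1L knockout 1 and at 0.15 with ENL knockout 1. Whether same-numbered libraries share a batch was not tested and cannot be told from these values.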
